A study of Rattus norvegicus with 6 samples.

Results

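Glutathione, thioredoxin and the other antioxidant systems of the cell were examined as 67 genes among the 14217 genes with a measured value in the prelimbic cortex (PL) of rats with spared nerve injury (SNI). The genes were chosen by symbol, with no measured value in the rule, although earlier results of these data were known when the rule was set. They were those whose symbol starts with Gst, Gpx, Prdx or Txn, together with Sod1, Sod2, Sod3, Cat, Gclc, Gclm, Gss, Gsr, Glrx, Nfe2l2, Keap1, Nqo1, Hmox1, Hmox2, Srxn1, Mt1, Mt2A and Mt3, where the symbol was the sole one of a probe set. These genes were read by 78 probe sets, and 59 of them by a single probe set. Messenger RNA was measured on Affymetrix rat genome arrays in the PL opposite to the operated side. The tissue was taken 14 days after the operation, and each group had 3 samples. All samples came from male Sprague Dawley rats, young animals by the study's methods. In the SNI group the tibial and common peroneal branches of the left sciatic nerve were cut and the sural branch was left intact, whereas in the control group the nerves were exposed and not cut. Both groups had surgery under anesthesia, with isoflurane named in the labels and pentobarbital in the methods. It is not stated whether each sample came from a separate rat, so a p-value here reflects how far samples of a group varied, and this variation may be technical.

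Glutathione is a small peptide with a reactive thiol. Glutamate-cysteine ligase and glutathione synthetase build it, glutathione peroxidases spend it on peroxides, glutathione S-transferases attach it to reactive compounds, and glutathione reductase returns its oxidized form to use with NADPH. The thioredoxin system runs beside it: thioredoxin reductase passes electrons from NADPH to thioredoxin, which reduces peroxiredoxins and other proteins. Superoxide dismutases turn superoxide into hydrogen peroxide, which catalase, the peroxidases and the peroxiredoxins remove. The transcription factor NRF2, encoded by Nfe2l2 and held back by KEAP1, drives many of these genes through the antioxidant response element, and the metallothioneins are small metal-binding proteins driven through metal response elements. In the brain, astrocytes are a main site of glutathione production, and neurons depend on them for its precursors.

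The antioxidant and metal response elements were looked for in the promoters, because these sequences link the genes of this pathway to shared regulators. RefSeq promoters of the build GRCr8, which run from 250 bases before to 50 bases after the start of the gene, were matched by gene ID for 58 of the 67 genes. The 250 bases before the start are shown here for the mitochondrial superoxide dismutase Sod2 and the thioredoxin reductase Txnrd1, both among the genes with lower values in the SNI group below, for Gclm, the modifier subunit of glutamate-cysteine ligase, and for the metallothionein Mt1. Capitals mark matches to the core of the antioxidant response element (TGACNNNGC) in Sod2, Txnrd1 and Gclm, on either strand. In Mt1 they mark matches on either strand to TGCNCNC. This is a looser form of the metal response element core, TGCRCNC, where R is A or G.
Sod2, chr1:50050169-50050418, minus strand: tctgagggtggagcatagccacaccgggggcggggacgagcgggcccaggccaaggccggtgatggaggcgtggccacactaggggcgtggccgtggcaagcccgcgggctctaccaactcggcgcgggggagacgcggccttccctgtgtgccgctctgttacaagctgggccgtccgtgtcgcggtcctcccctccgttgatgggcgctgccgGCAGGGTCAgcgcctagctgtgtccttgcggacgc
Txnrd1, chr7:22755905-22756154, minus strand: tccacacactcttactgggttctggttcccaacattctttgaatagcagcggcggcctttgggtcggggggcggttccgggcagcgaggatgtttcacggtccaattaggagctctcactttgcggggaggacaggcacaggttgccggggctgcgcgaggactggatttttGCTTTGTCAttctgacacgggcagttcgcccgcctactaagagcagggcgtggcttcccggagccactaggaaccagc
Gclm, chr2:213031885-213032134, plus strand: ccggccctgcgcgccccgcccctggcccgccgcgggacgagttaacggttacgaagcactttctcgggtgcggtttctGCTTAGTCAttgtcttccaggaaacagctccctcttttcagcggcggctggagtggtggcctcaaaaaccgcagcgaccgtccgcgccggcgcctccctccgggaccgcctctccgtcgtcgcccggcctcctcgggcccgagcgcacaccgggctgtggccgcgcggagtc
Mt1, chr19:10832976-10833225, minus strand: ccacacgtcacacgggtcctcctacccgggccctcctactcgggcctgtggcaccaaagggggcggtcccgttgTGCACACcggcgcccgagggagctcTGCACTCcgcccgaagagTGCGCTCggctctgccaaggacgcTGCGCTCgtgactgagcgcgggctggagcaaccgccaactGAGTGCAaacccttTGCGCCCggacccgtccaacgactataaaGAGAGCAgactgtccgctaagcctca

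The match in Sod2 lies at −35 to −27 from the start, that in Txnrd1 at −78 to −70 and that in Gclm at −172 to −164. RefSeq gives 2 promoters for Txnrd1, and only the promoter shown held the match. The Mt1 promoter holds 7 matches to the looser form of the metal response element core, as against 5 in Mt2A and 5 in Mt3. In each of these genes some matches have T or C in place of R and fall outside the core. In Mt1 this holds for TGCTCTC at −26 to −20. The whole window was then searched in the promoters of the 58 genes. A gene was counted if any of its promoters held a match. The antioxidant response element core was found for 21 genes, or 36.2%, as against 13.1% of the 27457 genes with a promoter in the table. The looser form of the metal response element core was found for 36 of the 58, or 62.1%, as against 52.0% of all genes. The AP-1 site (TGANTCA), which can lie inside an antioxidant response element and did so in Gstp1 and Mt2A, was found for 6 genes, or 10.3%, as against 8.04% of all genes. Both strands were searched for each motif, and a match is a description of the letters in this window.

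The deposited values are log2 values relative to the median of the 6 samples for each probe set, so that they hold differences between samples and no level of expression. For the same reason neither the presence of cortical markers nor a signal over background could be checked. For a gene with 1 probe set, the middle 2 of its 6 values are equal in size and opposite in sign by this centring. Array medians lay between −0.0054 and 0.013. The hybridization controls added to each array were higher in the SNI group, 0.11 ± 0.07 (SD, n = 3), than in the control group, −0.16 ± 0.10 (SD, n = 3), and 17 of their 18 probe sets did not overlap between the groups. Along the first principal component of all genes, with 37.0% of the variance, control sample 1 at 14.3 and control sample 3 at 8.82 stood apart from control sample 2 at −6.07 and from the SNI samples, between −5.90 and −5.38. What these array values contribute to the results below was not tested, apart from the fits given with the alternatives.

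No member of the group passed an adjusted p of 0.05, as for all genes tested (0 of 14217, 0.0%), and the smallest adjusted p was 0.207, for Sod2 (limma, Benjamini-Hochberg). The differences were small: they ran from −0.30 for Sod2 to 0.20 for Txnip on the log2 scale, SNI group minus control group. At an unadjusted p under 0.05, 10 of the 67 genes, or 14.9%, were lower in the SNI group, beside 9.19% of all genes. Only Gpx7, or 1.49%, was higher, beside 3.96% of all genes. The other 56 did not pass. In 11 genes, or 16.4%, every SNI sample lay below every control sample, beside 13.7% of all genes, and in 1 gene, the transferase Gstt2, every SNI sample lay above, beside 6.39% of all genes. The 10 lower genes and Gpx7 make 11 calls at an unadjusted p under 0.05. With the hybridization controls as a covariate, which differ between the groups, 10 of these 11 calls were lost. In that fit 4.48% of the 67 genes and 4.42% of all genes were lower. Without the covariate, none of the 67 genes met the study's criteria as read here, which 0.211% of all genes met. The study words its fold criterion as a log2 fold change over 1.5. Its criteria were read here as an unadjusted p under 0.05 with a linear fold over 1.5. With 3 samples against 3, an exact permutation test of a single gene cannot give a p under 0.1.

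**Figure D1:**
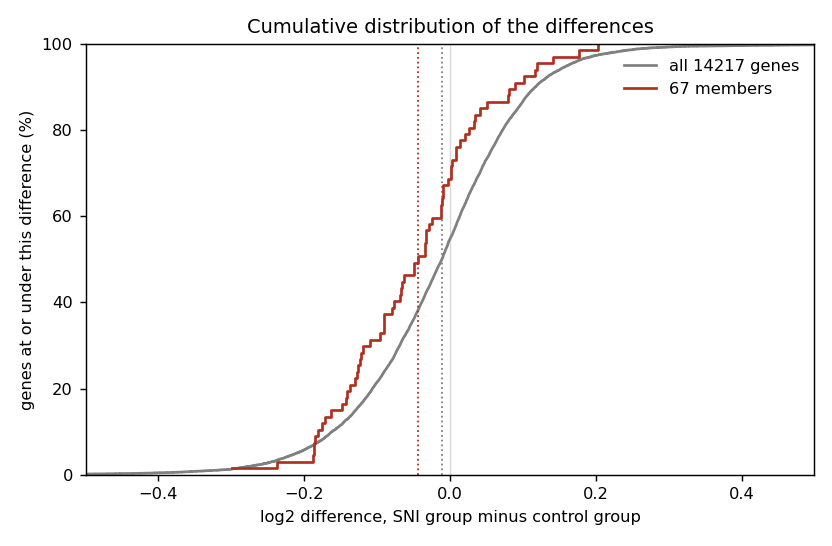
Cumulative distribution of the log2 difference, SNI group minus control group (x axis), as the percent of genes at or under each difference (y axis), for all 14217 genes (grey) and the 67 glutathione, thioredoxin and antioxidant genes (red). Dotted vertical lines mark the medians, −0.01 for all genes and −0.04 for the 67, and the red line runs left of the grey line over most of the range.

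The median difference of the 67 genes was −0.04, beside −0.01 for all genes. Of the 67, 46 were negative and 21 positive, and of all genes 54.8% were negative. The size of the differences was close to that of all genes, with a median of 0.08 without sign, beside 0.07. Averaged over the 67 genes, SNI samples 1, 2 and 3 read −0.01, −0.03 and −0.01, and control samples 1, 2 and 3 read 0.05, 0.03 and 0.02. The means over all genes had the same signs, −0.0083, −0.0091 and −0.0032 in the SNI samples and 0.0007, 0.02 and 0.01 in the control samples.

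Lists of cell type markers were read in the same samples, beside shares over all genes of 3.96% higher and 9.19% lower at an unadjusted p under 0.05, and of 6.39% above and 13.7% below without overlap. Of 11 measured microglial markers, 8 were higher in the SNI group at an unadjusted p under 0.05, with list means of 0.06 to 0.16 in the SNI samples and −0.16 to −0.08 in the control samples. Of 12 neuronal markers 1 was higher and 2 were lower, and 5 lay below without overlap, with list means of −0.10 to −0.0068 in the SNI samples and −0.01 to 0.14 in the control samples. For myelin 1 of 9 was lower and none higher (list means −0.14 to 0.0081 and −0.19 to 0.30). For astrocytes 1 of 11 was higher (−0.0034 to 0.04 and −0.17 to −0.0021), for endothelium 2 of 8 (0.03 to 0.06 and −0.16 to −0.02) and for blood cells 2 of 5 (0.04 to 0.24 and −0.21 to −0.03). None of 10 meningeal markers (−0.30 to 0.35 and −0.22 to 0.91) and none of 7 choroid plexus markers (0.0032 to 0.03 and −0.11 to 0.11) passed. In bulk tissue, fewer cells of a type and less RNA per cell cannot be told apart. The part of these cell types in the differences below was not tested.

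In glutathione synthesis and recycling, the differences of all 5 genes were negative, with a median of −0.19, beside 54.8% negative among all genes. An unadjusted p under 0.05 was reached by 3 of the 5, all lower in the SNI group, beside 9.19% of all genes. Of the 3, Gsr kept this call in 5 of 14 alternatives. Gclc encodes the catalytic subunit of glutamate-cysteine ligase, the rate-limiting step of synthesis. SNI samples 1, 2 and 3 read −0.15, −0.02 and −0.15, and control samples 1, 2 and 3 read 0.09, 0.10 and 0.06. All SNI samples were below all control samples, with SNI sample 2 nearest to them. The difference was −0.19 (SE 0.06, limma adjusted p = 0.251), which corresponds to −12.1% on the linear scale. Its unadjusted p was no longer under 0.05 without SNI sample 3, where the difference was −0.17.

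Glrx encodes glutaredoxin, which uses glutathione to release glutathione bound to protein thiols. It read −0.07, −0.18 and −0.07 in the SNI samples and 0.11, 0.10 and 0.03 in the control samples. The groups did not overlap, and the difference was −0.19 (SE 0.06, limma adjusted p = 0.249), with the call lost without SNI sample 2, at −0.15. Gsr encodes glutathione reductase. It read −0.34, −0.12 and 0.03 in the SNI samples and 0.19, −0.03 and 0.12 in the control samples, so that SNI sample 3 lay among the controls. Its difference was −0.24 (SE 0.10, limma adjusted p = 0.377). Without SNI sample 1 it was −0.14, and the call was also lost without SNI sample 2 (−0.25), control sample 1 (−0.19) and control sample 3 (−0.22).

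Gclm, the modifier subunit of the ligase, showed the widest control range of the 67 genes. The control samples read 0.52, −0.50 and 0.35, a range of 1.02, and the SNI samples 0.03, −0.04 and −0.03, a range of 0.07. Control samples 1 and 3 were above all SNI samples and control sample 2 was below them. The difference of −0.14 (SE 0.23, 95% confidence interval −0.67 to 0.39) did not pass. Without control sample 2 it was −0.45 (SE 0.07, limma adjusted p = 0.0788), without control sample 1 it turned to 0.06, and without control sample 3 it was −0.03. Gss, glutathione synthetase, differed by −0.03 (95% confidence interval −0.31 to 0.24), with control samples 1 and 2 at 0.18 and 0.18 and control sample 3 at −0.28.

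**Figure D2:**
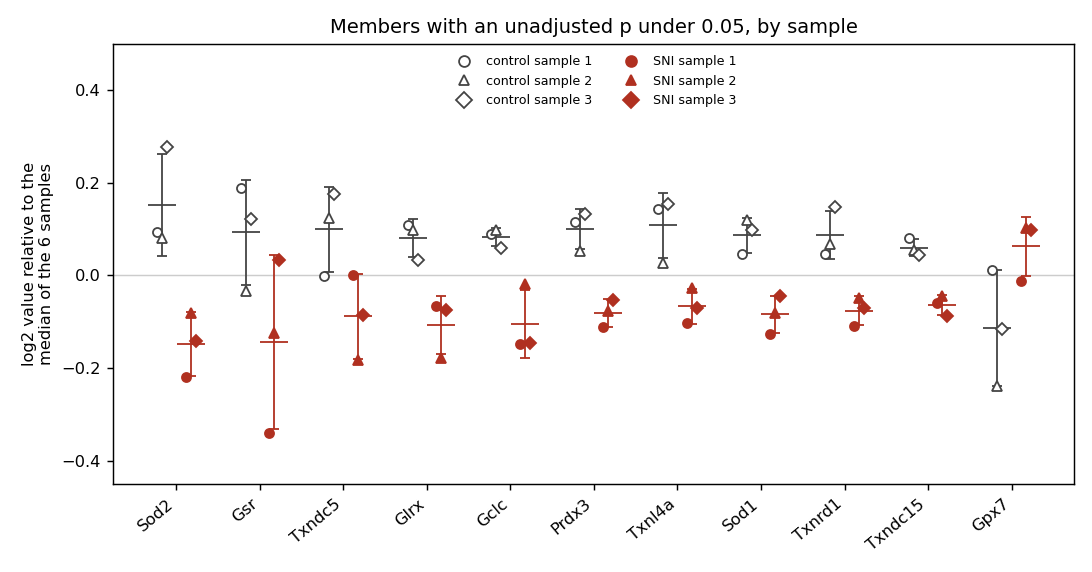
Log2 value relative to the median of the 6 samples (y axis) for the 11 genes with an unadjusted p under 0.05 (x axis, ordered by difference). Open grey symbols are control samples, filled red symbols SNI samples, with 1 symbol shape per replicate number, and bars give mean ± SD of each group. The groups do not overlap in Sod2, Glrx, Gclc, Prdx3, Txnl4a, Sod1, Txnrd1 and Txndc15, and they overlap in Gsr, Txndc5 and Gpx7.

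The probe sets of Gclc and Glrx did not read the same size of difference. For Gclc, probe set 1370688_at read −0.32 (SE 0.07) and 1372523_at −0.06 (SE 0.06). For Glrx, 1367705_at read −0.32 (SE 0.06) and 1386908_at −0.05 (SE 0.07). In both genes the first probe set had all SNI samples below all control samples and the second overlapped. Tested alone over all 31042 probe sets, the stronger ones had limma adjusted p of 0.152 and 0.0993.

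**Figure D3:**
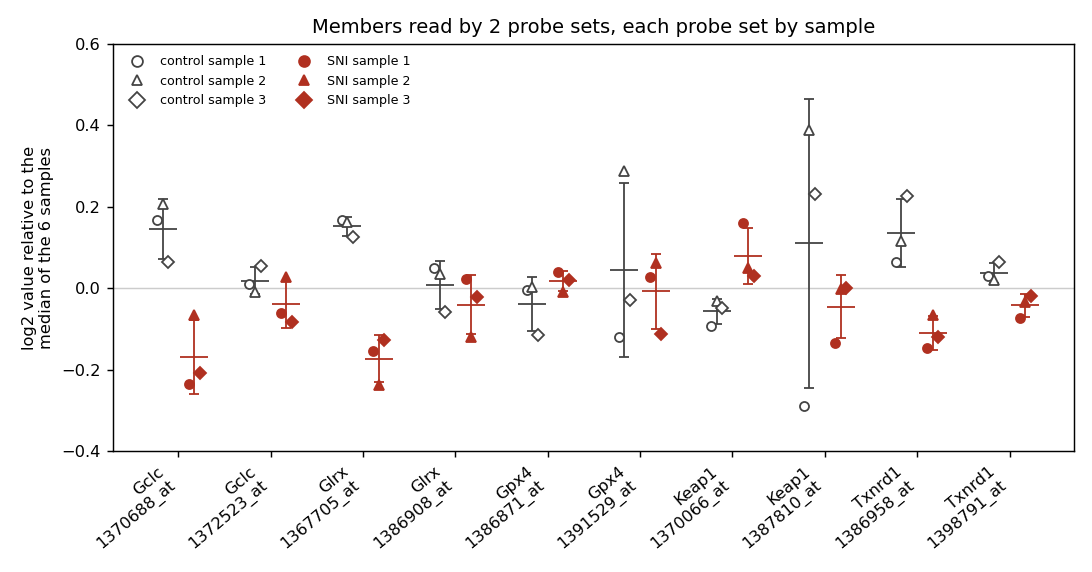
Log2 value relative to the median of the 6 samples (y axis) for each probe set of 5 genes read by 2 probe sets (x axis), with control samples in open grey, SNI samples in filled red and bars for mean ± SD (n = 3). In Gclc, Glrx and Txnrd1 both probe sets are lower in the SNI group with unequal size, and in Keap1 and Gpx4 the pair differ in sign.

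The glutathione S-transferases, the largest family here, showed no gene past an unadjusted p of 0.05 in either direction. Of all genes, 9.19% were lower and 3.96% higher at that threshold. Of the 21 genes, 13 were negative and 8 positive, the median was −0.03 and the differences ran from −0.13 for Gstm5 to 0.12 for Gsta1. The 7 mu-class genes, several of which are astrocytic in brain, had a median of −0.0032. Gstm1 read −0.0092, 0.0085 and −0.0085 in the SNI samples and 0.04, −0.17 and 0.06 in the control samples, a difference of 0.02 (SE 0.07). Gstp1, the pi-class transferase, differed by −0.09 (SE 0.08, 95% confidence interval −0.27 to 0.09). A pair of transferases were noted for their separation after their values were seen. In Gstk1, the mitochondrial and peroxisomal kappa-class enzyme, the SNI samples at −0.01, −0.08 and −0.08 lay below the control samples at 0.13, 0.05 and 0.01. In Gstt2, a theta-class enzyme, the SNI samples at 0.02, −0.0046 and 0.01 lay above the control samples at −0.0074, −0.07 and −0.01, a separation smaller than the SE of 0.05. Its probe sets differed in sign, with 0.15 for 1368409_at and −0.06 for 1396468_at. Gst genes of one class have similar sequences, and cross-hybridization between them was not tested.

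Most glutathione peroxidases reduce peroxides with glutathione, and Gpx7 and Gpx8 are counted among them here by symbol alone. Of the 7 genes 4 were positive and 3 negative, with a median of 0.0012. Gpx1, the abundant cytosolic enzyme, differed by 0.0086 (95% confidence interval −0.16 to 0.18). Gpx4, which reduces lipid peroxides in membranes, differed by 0.0012 (95% confidence interval −0.17 to 0.17), with 0.06 for probe set 1386871_at and −0.05 for 1391529_at. Gpx7, an endoplasmic reticulum peroxidase, was the single higher gene. It read −0.01, 0.10 and 0.10 in the SNI samples and 0.01, −0.24 and −0.11 in the control samples, with a difference of 0.18 (SE 0.08, limma adjusted p = 0.37). Control sample 1 lay above SNI sample 1.

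Among the peroxiredoxins, which reduce peroxides with thioredoxin, the mitochondrial enzyme Prdx3 was lower in the SNI group. It read −0.11, −0.08 and −0.05 in the SNI samples and 0.12, 0.05 and 0.13 in the control samples. The groups did not overlap, and the difference was −0.18 (SE 0.05, limma adjusted p = 0.237). Prdx4, the endoplasmic reticulum enzyme, had a difference of like size, −0.19, with an SE of 0.09. Its control samples 1 and 3, at 0.22 and 0.30, were above all SNI samples, between −0.09 and 0.04, and control sample 2 at −0.05 was not. Prdx5 differed by −0.15 (SE 0.08), Prdx2 by −0.08 (SE 0.06) and Prdx6, which works with glutathione in place of thioredoxin, by 0.05 (SE 0.08). Srxn1, the sulfiredoxin that restores overoxidized peroxiredoxins, differed by −0.09 (SE 0.09), and its 3 probe sets read −0.03, −0.10 and −0.15. Prdx1 shares its only probe set with another symbol and was not analysed here.

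In the thioredoxin system itself, the cytosolic reductase Txnrd1 and its substrate Txn1 were below the controls in every SNI sample. Txnrd1 read −0.11, −0.05 and −0.07 in the SNI samples and 0.05, 0.07 and 0.15 in the control samples, a difference of −0.16 (SE 0.05, limma adjusted p = 0.281). Both of its probe sets separated the groups, by −0.25 (SE 0.07) for 1386958_at and by −0.08 (SE 0.06) for 1398791_at. Txn1, thioredoxin, read −0.04, −0.02 and −0.05 in the SNI samples and 0.09, 0.02 and 0.14 in the control samples, and its difference of −0.12 (SE 0.05, limma adjusted p = 0.39) missed an unadjusted p of 0.05. The mitochondrial pair differed by less than their errors: Txn2 by 0.0082 (SE 0.05) and Txnrd2 by −0.01 (SE 0.09).

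Txnip encodes the thioredoxin-interacting protein, which binds and inhibits thioredoxin. It had the highest difference of the 67 genes, 0.20 (SE 0.10, 95% confidence interval −0.02 to 0.42, limma adjusted p = 0.421), and did not pass. The SNI samples read 0.34, −0.03 and 0.13 and the control samples 0.03, −0.10 and −0.11. SNI samples 1 and 3 were above all controls and SNI sample 2 was among them. The difference was 0.11 without SNI sample 1 and 0.29 without SNI sample 2, where its unadjusted p was under 0.05. With the hybridization controls as a covariate it turned to −0.19.

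The thioredoxin-like and thioredoxin-domain proteins, many of which fold or handle proteins rather than detoxify peroxides, were negative in 9 of 10 genes, with a median of −0.09. Among all genes 54.8% were negative. An unadjusted p under 0.05 was reached by 3 of the 10, all lower in the SNI group, beside 9.19% of all genes lower. Txnl4a, a component of the spliceosome, read −0.10, −0.03 and −0.07 in the SNI samples and 0.14, 0.03 and 0.15 in the control samples, without overlap, a difference of −0.17 (SE 0.06, limma adjusted p = 0.282). Txndc15, a transmembrane protein, read −0.06, −0.04 and −0.09 in the SNI samples and 0.08, 0.05 and 0.04 in the control samples, also without overlap, a difference of −0.12 (SE 0.05, limma adjusted p = 0.345). Txndc5, a disulfide isomerase of the endoplasmic reticulum, differed by −0.19 (SE 0.07, limma adjusted p = 0.329), with SNI sample 1 at 0.0019 and control sample 1 at −0.0019, where the groups just overlapped. Of the 4 probe sets of Txnl1, 1368936_at read −0.25 (SE 0.09) and the other ones between −0.0094 and 0.08.

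The superoxide dismutases held the largest difference. Sod2, the manganese enzyme of mitochondria, read −0.22, −0.08 and −0.14 in the SNI samples and 0.09, 0.08 and 0.28 in the control samples. The groups did not overlap, and control sample 3 was the highest. The difference was −0.30 (SE 0.07, 95% confidence interval −0.47 to −0.13, limma adjusted p = 0.207), or −18.7% on the linear scale. With the hybridization controls as a covariate it was −0.10 and lost its call. Sod1, the cytosolic copper and zinc enzyme, read −0.13, −0.08 and −0.05 in the SNI samples and 0.05, 0.12 and 0.10 in the control samples, again without overlap, a difference of −0.17 (SE 0.05, limma adjusted p = 0.256). Sod3, the extracellular enzyme, differed by 0.0009 (95% confidence interval −0.16 to 0.16) and Cat, the peroxisomal catalase, by −0.07 (95% confidence interval −0.23 to 0.10).

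**Figure D4:**
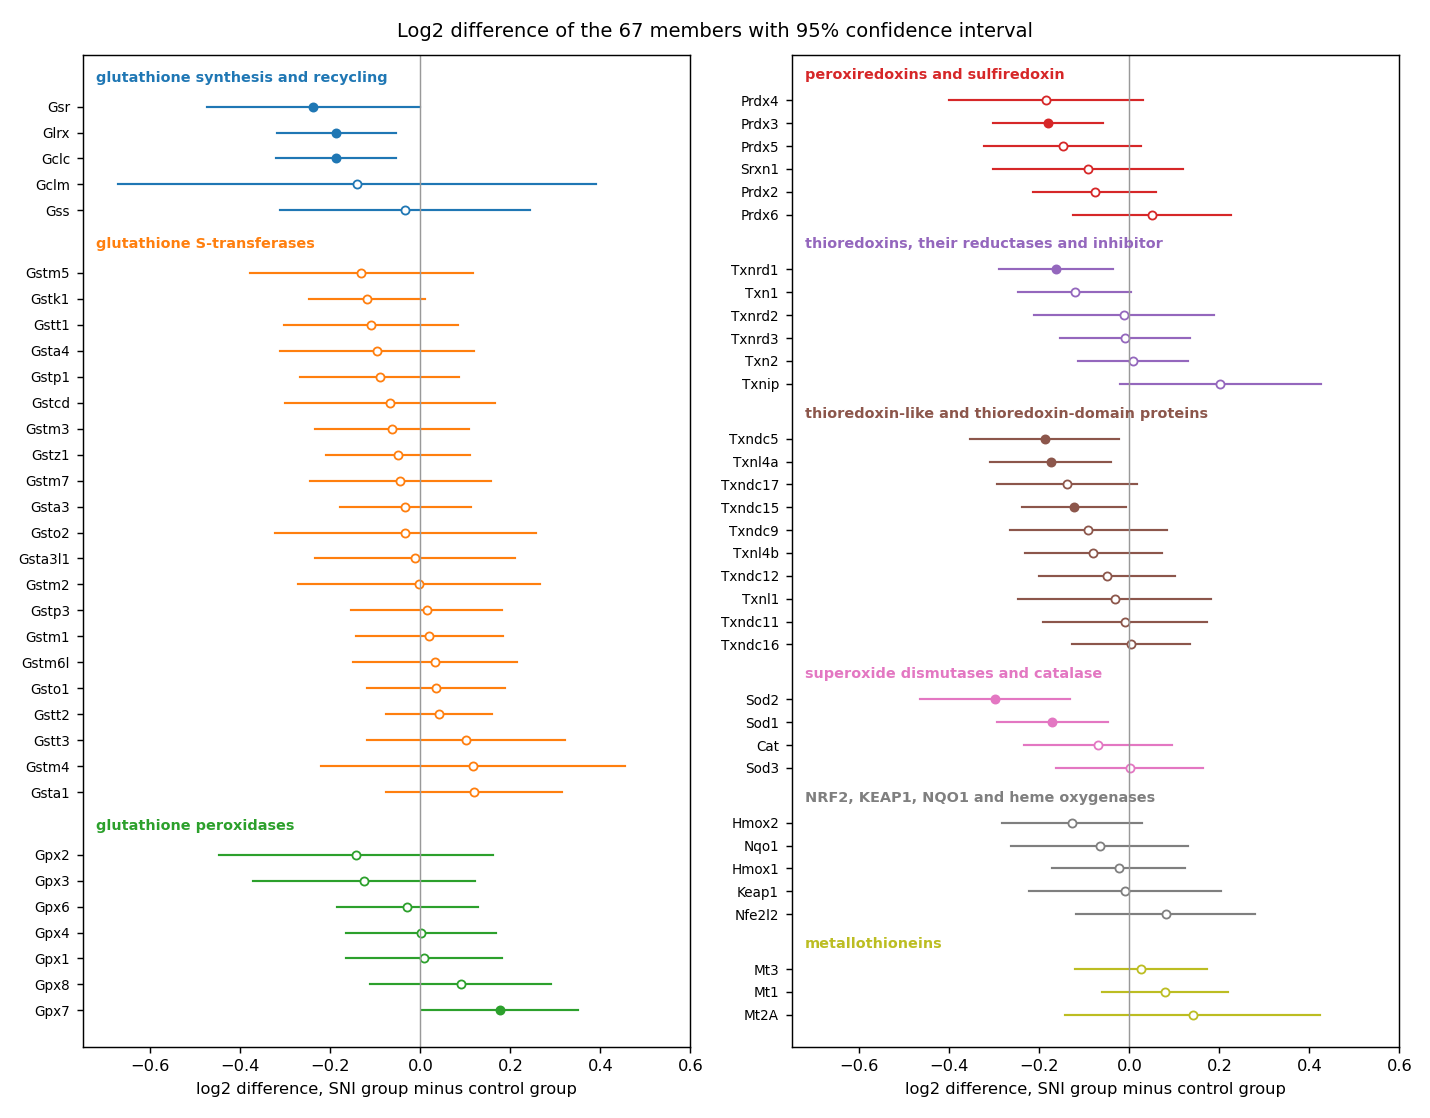
Log2 difference, SNI group minus control group (x axis), with its 95% confidence interval for each of the 67 genes (y axis), grouped and coloured by role. Filled points have an unadjusted p under 0.05 (10 lower, 1 higher), open points do not, and intervals left of 0 lie in the groups for synthesis and recycling, peroxiredoxins, thioredoxins, thioredoxin-like proteins and superoxide dismutases.

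The NRF2 regulators and their most used reporter genes gave no gene past an unadjusted p of 0.05. Nfe2l2 read 0.07, −0.12 and 0.21 in the SNI samples and 0.02, −0.08 and −0.02 in the control samples, a difference of 0.08 (95% confidence interval −0.12 to 0.28). Keap1 differed by −0.0096 (95% confidence interval −0.22 to 0.20), an average of probe sets that went opposite ways: 1370066_at read 0.14 (SE 0.06), with all SNI samples above all controls, and 1387810_at read −0.16 (SE 0.16). The quinone reductase Nqo1 differed by −0.07 (95% confidence interval −0.26 to 0.13), and the inducible heme oxygenase Hmox1 by −0.02 (95% confidence interval −0.17 to 0.12). Hmox2, the constitutive heme oxygenase, was named after its values were seen: its SNI samples at −0.19, −0.03 and −0.0094 lay below the control samples at 0.03, 0.0094 and 0.12, with a difference of −0.13 (SE 0.07).

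The genes were also set side by side by the presence of the antioxidant response element core in the promoter window. The median difference was −0.09 for the 21 genes with a match and −0.03 for the other 37, given as a description. Of the 10 lower genes 9 had a promoter, and 3 of these, Sod2, Txndc5 and Txnrd1, held the core.

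The metallothioneins all had positive differences, within wide errors, beside 45.2% positive among all genes. Mt1 differed by 0.08 (SE 0.06), Mt2A by 0.14 (SE 0.12) and Mt3, the form enriched in the brain, by 0.03 (SE 0.06). With the hybridization controls as a covariate, Mt1 was at −0.0052, Mt3 at −0.039 and Mt2A at 0.28. Mt2A read −0.02, 0.03 and 0.02 in the SNI samples, with control sample 2 at 0.18 above them and control samples 1 and 3 at −0.23 and −0.34 below. The difference of Mt2A was 0.30 without control sample 2 (SE 0.06, limma adjusted p = 0.0823), 0.09 without control sample 1 and 0.04 without control sample 3.

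**Figure D5:**
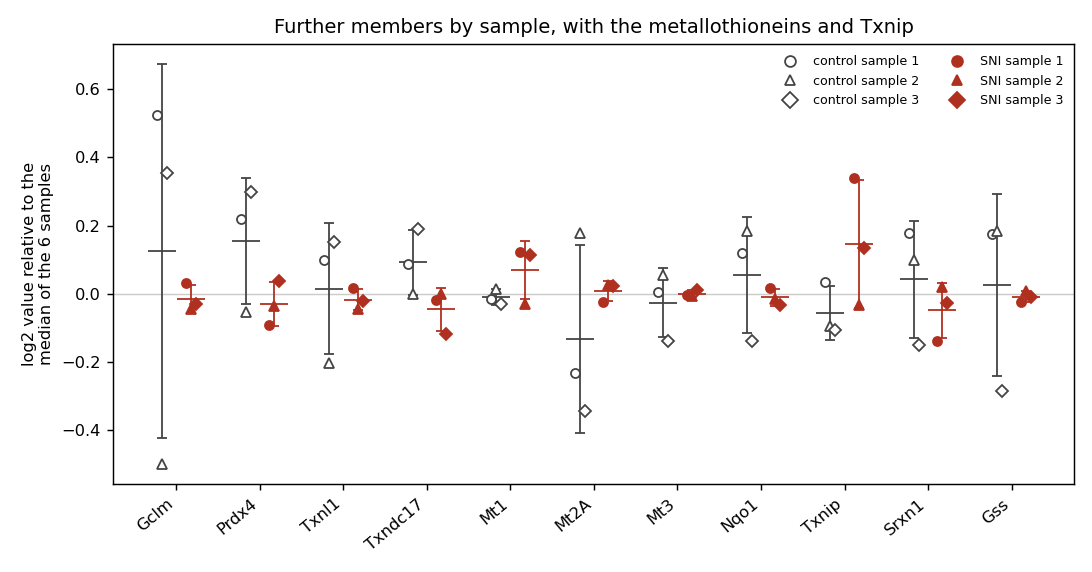
Log2 value relative to the median of the 6 samples (y axis) for further genes by sample (x axis), with control samples in open grey, SNI samples in filled red and bars for mean ± SD (n = 3). In Gclm, Prdx4, Txnl1 and Txndc17 control samples 1 and 3 lie above the SNI samples and control sample 2 does not, and in Mt2A they lie below.

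The pattern of Gclm and Mt2A, with control samples 1 and 3 on one side of all SNI samples and control sample 2 not, was counted over the group. These controls were above in 7 genes, or 10.4% (Gclm, Gsr, Gstm1, Gstm5, Prdx4, Txndc17 and Txnl1), beside 10.5% of all genes. They were below in 2 genes, or 2.99% (Gpx4 and Mt2A), beside 11.6% of all genes. The SD was larger in the control group than in the SNI group for 45 of the 67 genes, or 67.2%, beside 70.6% of all genes.

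Other genes that serve the same systems were read from 8 lists. Of 96 listed genes 91 were measured, 12 were lower at an unadjusted p under 0.05 (13.2%, beside 9.19% of all genes) and 3 were higher (3.30%, beside 3.96%). Their median was −0.01, as for all genes. Among other enzymes that use glutathione, 3 of 9 were lower, namely Mgst3, Hagh and Esd. Mgst3, a microsomal transferase and peroxidase, read −0.13, −0.16 and −0.10 in the SNI samples and 0.11, 0.10 and 0.23 in the control samples, a difference of −0.28 (SE 0.06, limma adjusted p = 0.189). It lay outside the name rule of the 67 genes and differed about as much as Sod2. In glutathione supply and turnover, with 18 genes, the exporter Abcc1 was higher, at 0.11, 0.10 and 0.17 in the SNI samples and −0.12, −0.10 and −0.24 in the control samples, a difference of 0.28 (SE 0.06, limma adjusted p = 0.196), and Ahcy, of the methionine cycle, was lower, by −0.22 (SE 0.06). The cystine importer Slc7a11, named after its value was seen, differed by 0.01 (SE 0.11).

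The counts in the next lists stand beside 9.19% of all genes lower at an unadjusted p under 0.05 and 13.7% below without overlap. NADPH is the electron source of both reductases. Of 8 measured genes for its supply 2 were lower, the transaldolase Taldo1 by −0.22 (SE 0.06, limma adjusted p = 0.216) and the malic enzyme Me1 by −0.17 (SE 0.06), each without overlap. Of 11 other thiol reductases 2 were lower, the methionine sulfoxide reductases Msra by −0.37 (SE 0.14) and Msrb3 by −0.18 (SE 0.07). Of 7 genes of selenoproteins and their supply 2 were lower. These were the selenoprotein Selenom, by −0.19 (SE 0.07), and Sephs2, which makes the selenium donor, by −0.19 (SE 0.07). Among 20 measured partners and other targets of NRF2 2 were lower, the biliverdin reductase Blvra by −0.18 (SE 0.06, limma adjusted p = 0.281) and Nqo2 by −0.76 (SE 0.26), whose groups overlapped with control sample 1 at 0.97. Of 7 genes of copper and zinc handling none passed, and the smallest p was that of the zinc importer Slc39a10, at −0.12 (SE 0.06).

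Among the sources of oxidants, all 11 measured genes had differences above 0, beside 45.2% of all genes, from 0.0063 to 0.20 with a median of 0.03. An unadjusted p under 0.05 was reached by 2 of them, or 18.2%, beside 3.96% of all genes higher. The neuronal nitric oxide synthase Nos1 read 0.12, 0.07 and 0.04 in the SNI samples and −0.23, −0.11 and −0.04 in the control samples, a difference of 0.20 (SE 0.06, limma adjusted p = 0.265). The xanthine dehydrogenase Xdh differed by 0.18 (SE 0.06, limma adjusted p = 0.292). Several genes of this list are expressed in microglia, whose markers were higher in the SNI samples as given above. Among these genes, Cybb differed by 0.0063 (SE 0.09), Cyba by 0.02 (SE 0.05), Ncf1 by 0.03 (SE 0.10) and Ncf4 by 0.03 (SE 0.14). None of them passed an unadjusted p of 0.05. The part of microglia in the differences of this list was not tested.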

How the data were processed

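Per the labels and the methods, the authors used RMA, a log2 scale and quantile normalization. The deposited log2 values also have the 6-sample median of each probe set at 0 (within 4.78e-07), by a centring that the sources used here do not describe. Software versions of the authors are likewise not given there. Groups came from the sample labels, and the miRNA arrays and other assays were not analysed here.

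Of 31099 probe sets, 57 array controls were left out. Symbols came from the platform annotation: 20826 probe sets had 1 symbol, 436 several and 9780 none, and no gene was named from the latter. A gene's value is the mean of its probe sets with that symbol alone, and 3 probe sets that hold a member's symbol beside others were left out. All 67 members matched a RefSeq gene ID. The log2 values of the 14217 genes were fitted with limma 3.58.1 in R 4.3.3 (lmFit and eBayes, SNI minus control, no covariates, two-sided). The p-values were adjusted over all genes by Benjamini-Hochberg, and the fit was tested on simulated data. Genes were drawn independently there, so that test does not cover effects shared by the genes of an array. The 95% confidence intervals use the moderated degrees of freedom. Plots used Python 3.11.15 and matplotlib 3.10.9.

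The members and lists were chosen with earlier results of these data known. Named members are those with an unadjusted p under 0.05 and groups without overlap, a fixed list of symbols from each system, and the member of each pathway list with the smallest p. Others were named after their values were seen. Alternatives were repeated quantile normalization, aligned medians, the methods' t-test, medians of probe sets, single probe sets, suffixed probe sets left out, robust eBayes, the hybridization controls as a covariate, the replicate number as a block, other thresholds and each sample left out. The number of arrays limits the precision.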

Additional observations from a re-analysis of the deposited data

Results flagged for a closer look

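The hybridization controls, which are added to every array and carry no tissue RNA, differed between the groups. Averaged over 18 probe sets, SNI samples 1, 2 and 3 read 0.19, 0.05 and 0.10, and control samples 1, 2 and 3 read −0.05, −0.20 and −0.22. The difference was 0.27 on the log2 scale, and every SNI sample lay above every control sample. The poly-A controls, with 24 probe sets, differed by 0.26. These probe sets are not among the genes compared in the report. The mean of the hybridization controls did enter the fit with a covariate, where 1 of the 11 calls was kept.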

How the results depend on the processing

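No member passed an adjusted p of 0.05 under any alternative run, and the smallest adjusted p with all samples kept was 0.0993, for a single probe set of Glrx. The cause of each change given here was not tested. Replicate numbers did not pair the samples (correlations of deviations −0.02, −0.0074 and −0.05), and with the replicate number as a block 7 members were lower and 1 higher, beside 10 and 1 without it. The higher member with the block was not Gpx7, which lost its call there. Lower members numbered 3 with the hybridization controls as a covariate and 2 at an unadjusted p under 0.01, and 6 to 14 with a sample left out (6 without each SNI sample, 14 without control sample 2). The share of all genes that were lower moved too, from 9.19% to 4.42% with the covariate, 3.04% at the stricter p, 5.69% to 6.34% without an SNI sample and 14.6% without control sample 2. Higher members numbered 0 with the methods' t-test, with the covariate, with single probe sets and at the stricter p, and 0 to 2 with a sample left out. Lower pathway genes numbered 6 with the covariate and 7 to 16 with a sample left out (7 without SNI sample 1), and higher ones 2 to 9 (9 without control sample 2). The median of the members was −0.10 with the covariate and −0.055 to −0.030 with a sample left out. The covariate differs between the groups, and with it the median SE of the members was 0.16 in place of 0.08. With it, 1 of the 11 called members kept its call, Glrx at −0.30, and Gpx3 (−0.58) and Txndc11 (−0.35) were lower. Of the lost calls, Prdx3 (−0.17), Txnl4a (−0.17), Txndc15 (−0.15), Gsr (−0.19), Txndc5 (−0.14) and Gclc (−0.13) moved by less than 1.5 times, and Sod2 (−0.10), Sod1 (−0.07), Txnrd1 (−0.05) and Gpx7 (0.07) by more. It turned the sign of Gstm1 (−0.048), Gstp1 (0.15), Keap1 (0.33), Mt1 (−0.0052), Mt3 (−0.039), Nfe2l2 (−0.089), Prdx2 (0.017), Prdx5 (0.16), Prdx6 (−0.024) and Txnip (−0.19). Repeated quantile normalization turned Gpx4 (−0.0009), and single probe sets turned Gpx4 (−0.053) and Keap1 (0.14). With a sample left out, differences whose sign turned ran from −0.45 to 0.058 for Gclm, −0.042 to 0.088 for Gpx1, −0.036 to 0.072 for Gpx4, −0.19 to 0.045 for Gss, −0.052 to 0.061 for Gstm1, −0.079 to 0.011 for Hmox1, −0.12 to 0.066 for Keap1, −0.030 to 0.066 for Mt3 and −0.019 to 0.098 for Prdx6. Of 14 alternatives, the unadjusted p stayed under 0.05 in 13 for Sod2, Prdx3 and Glrx, 12 for Gclc and Sod1, 11 for Txnrd1, 10 for Txnl4a, 7 for Txndc5, Txndc15 and Gpx7, and 5 for Gsr. Leaving out a sample ended the call of Sod1 without SNI sample 1 (−0.15), of Txnrd1 without SNI sample 1 or control sample 3 (−0.15 and −0.13), of Txnl4a without SNI sample 1, SNI sample 3 or control sample 3 (−0.17 to −0.15), of Txndc5 without SNI samples 2 or 3 or control samples 2 or 3 (−0.19 to −0.14), of Txndc15 without each sample other than control sample 2 (−0.13 to −0.11), and of Gpx7 without SNI samples 2 or 3 or control samples 2 or 3 (0.11 to 0.18). Of the other values for named members under an alternative, 356 kept sign and side of an unadjusted p of 0.05, 47 lost it and 10 gained it.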
